A study of Mus musculus with 6 samples.

Results

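Acyl-CoA thioesterases are the enzymes that split an activated fatty acid, an acyl-CoA, back into a free fatty acid and coenzyme A. The 9 genes described here are *Acot1*, *Acot2*, *Acot3*, *Acot4*, *Acot7*, *Acot9*, *Acot11*, *Acot12* and *Acot13*, chosen by symbol, and all 9 were found among the 21367 genes of the deposited table. They were measured by mRNA sequencing of whole kidneys from 3 *Ptpn6*+/mev mice and 3 wild-type littermates. The mutants are heterozygous for mev, the viable motheaten splice site mutation, in *Ptpn6*, which codes for the phosphatase SHP-1, on a C57BL/6 background, and the labels call this genotype SHP1 knockdown. Every mouse, wild-type included, was 7 weeks old, had lost the right kidney, and had the left kidney clamped for 34 min. The left kidneys were taken at 24 h of reperfusion after this ischemia-reperfusion injury (IRI), so each comparison is between injured kidneys, and uninjured kidneys were not analysed here.

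The thioesterases fall into 2 families of unrelated fold. Type I enzymes have an α/β-hydrolase fold and are coded by a row of genes on mouse chromosome 12, among them *Acot1* (cytosol), *Acot2* (mitochondrial matrix), and *Acot3* and *Acot4* (peroxisomes), and several of them are known targets of PPARα, the receptor that switches on fatty acid oxidation. Type II enzymes share a hotdog fold and are scattered over the genome, and they include *Acot7* (cytosol, best known from brain), *Acot9* (mitochondria), *Acot11* and *Acot12* (which carry an added lipid-binding START domain) and the small *Acot13*. The proximal tubule lives largely on fatty acids, and thioesterases set how much of its acyl-CoA stays activated in each compartment.

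The libraries held between 10271590 and 12361745 counts. After edgeR's removal of genes with few counts, 13036 remained and were tested with its quasi-likelihood test and the Benjamini-Hochberg adjustment. Within a group, each pair of libraries was further apart than sampling noise, as the chi-square statistic over genes was at least 6.27 times its degrees of freedom. Wild-type replicate 2 stood apart: its TMM scaling factor was 0.929, against 0.994 to 1.03 in the other libraries, and its endothelial, macrophage and fibroblast markers were the lowest of all wild-type libraries. The FPKM of *Ptpn6* ranged from 11.85 to 14.7 in *Ptpn6*+/mev mice and from 10.9 to 17.5 in wild-type mice, and since the mutation lies in a splice site, this level does not check the genotype. Among kidney markers, the 12 proximal tubule genes were all present, and lymphocyte markers were close to 0, with a summed FPKM of at most 3.14.

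Of the thioesterase genes of chromosome 12, *Acot1* and *Acot2* are near copies of each other, and this limits how well sequencing can tell them apart. In the GENCODE M21 annotation of GRCm38, *Acot2* lies on chromosome 12 from 83987861 to 83993873, *Acot1* from 84009490 to 84018371, *Acot4* from 84038379 to 84048601 and *Acot3* from 84052144 to 84060402, all on the plus strand and followed by *Acot5* and *Acot6*. The coding sequence of *Acot1* has 1257 bases and that of *Acot2* 1359. Bases 7 to 1236 of *Acot1* aligned with bases 130 to 1359 of *Acot2*, and were identical at 1176 of 1230 positions, or 95.6%. Aligned over their whole lengths, with gaps counted as differences, the 2 coding sequences were 85.6% identical. Shown first is the longest stretch that both genes share without a difference, 273 bases from coding base 887 to 1159 of *Acot1* and from 1010 to 1282 of *Acot2*. It is longer than the 150 bases of a read. Shown next is the start of the *Acot2* coding sequence, with the bases that precede the part aligned to *Acot1* in capitals.
Shared by Acot1 and Acot2: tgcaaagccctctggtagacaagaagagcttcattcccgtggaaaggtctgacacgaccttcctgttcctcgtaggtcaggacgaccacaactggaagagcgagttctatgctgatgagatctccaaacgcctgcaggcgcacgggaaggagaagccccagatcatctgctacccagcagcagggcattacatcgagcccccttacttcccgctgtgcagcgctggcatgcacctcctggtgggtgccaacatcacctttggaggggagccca
Acot2, first coding bases: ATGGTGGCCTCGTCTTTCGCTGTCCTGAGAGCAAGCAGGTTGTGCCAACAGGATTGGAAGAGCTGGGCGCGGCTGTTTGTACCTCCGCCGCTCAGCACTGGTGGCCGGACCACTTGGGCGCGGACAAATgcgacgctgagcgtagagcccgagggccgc

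Of all 150-base windows in the annotated *Acot2* transcripts, 10.2% also occurred in *Acot1* transcripts. The share found in any other gene was 6.92% for *Acot1* and 10.7% for *Acot3*, whose windows were shared with an overlapping gene model and with *Acot1*, *Acot5* and *Acot6*. No window of *Acot4*, *Acot7*, *Acot9*, *Acot11*, *Acot12* or *Acot13* occurred in another gene. Fractional counts, which can arise where a fragment is divided between genes, were present for 4 of the 9 genes, *Acot1*, *Acot2*, *Acot3* and *Acot11*. *Acot11*, on chromosome 4 from 106744555 to 106804998, overlaps *Fam151a* on the opposite strand along 20.9% of its exon bases, and the counting is not stated to use strand. *Acot3* and *Acot4* share 9.08% and 9.21% of their exon bases with *4732463B04Rik*, and *Acot12* shares 4.52% with *4833422C13Rik*, both on the opposite strand. The levels of these 6 genes are therefore uncertain.

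Levels per length were given by the authors as FPKM, in which fragments are scaled to transcript length and sequencing depth. *Acot13* was the most abundant member, and its mean FPKM was 111 ± 12.5 (SD, n = 3) in the mutants against 101 ± 11.3 (SD, n = 3) in wild-type mice. It was followed by *Acot1*, which was below *Acot13* in every mouse, although their ranges overlapped in the *Ptpn6*+/mev group. Next came *Acot9*, *Acot12*, *Acot7* and *Acot2*, whose order was not fixed. In wild-type mice all neighbours among these 4 genes overlapped. In *Ptpn6*+/mev mice, *Acot9* stood above *Acot12* and *Acot7*, with a lowest value of 36.7 against highest values of 32.0 and 32.95. *Acot2* overlapped *Acot9* there, and *Acot12*, *Acot7* and *Acot2* overlapped each other. *Acot4* followed at a mean of 8.90 and 9.82 in the 2 groups, below *Acot2* and above *Acot11* without overlap in either. *Acot11* and *Acot3* closed the order, and their ranges overlapped in both groups. Counts per library ranged from 66.4 for *Acot3* to 2102 for *Acot1*, so every member passed the filter on low counts.

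**Figure D1:**
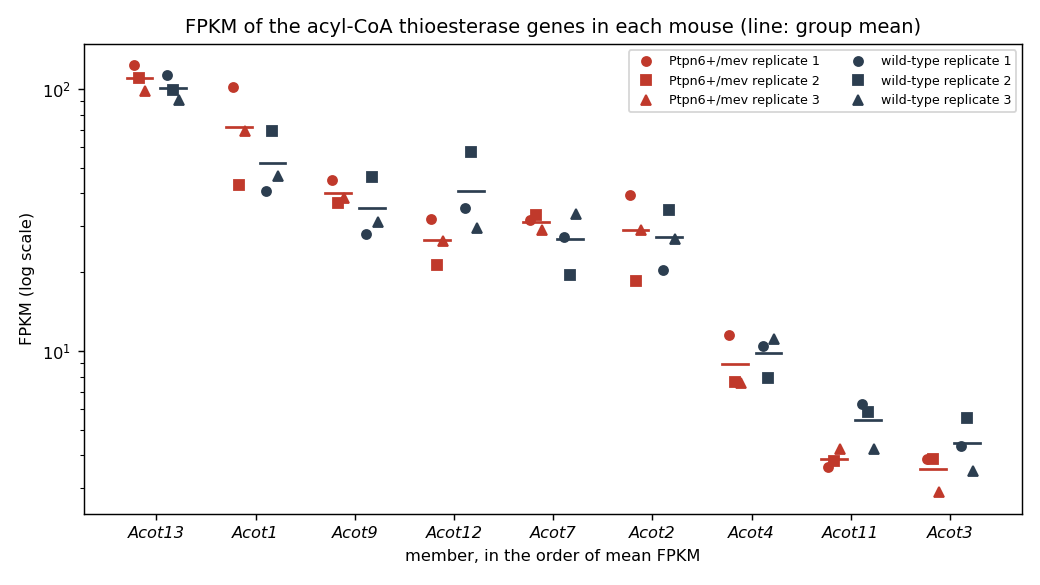
FPKM of the 9 thioesterase genes (vertical axis, log scale) in each of the 6 mice, with *Ptpn6*+/mev in red, wild-type in dark blue, a symbol for each replicate number and a line at each group mean. *Acot13* is at the top at 90.8 to 123, *Acot3* at the bottom at 2.89 to 5.56, and the values of the 2 groups overlap for every gene.

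The question for each gene was whether its transcript differed between *Ptpn6*+/mev and wild-type kidneys after IRI. None of the 9 genes passed an FDR of 0.05 in edgeR's quasi-likelihood test, in which 0.138% of all tested genes were called. The genes *Acot11* and *Acot12* had an unadjusted p under 0.05, as did 12.2% of all tested genes. Neither edgeR's exact test nor DESeq2 called a member, while they called 2.99% and 2.97% of the genes they tested. With 1 library left out, the quasi-likelihood test again called no member. Of all genes it called 0.0303%, 0.0834% and 0.0076% without *Ptpn6*+/mev replicate 1, 2 and 3, and 0.0758%, 1.8% and 0.508% without wild-type replicate 1, 2 and 3. Without a filter on low counts it called 0.315% of genes and no member. The log2 fold change was negative for 4 members and positive for 5, against a negative value in 50.5% of all tested genes, and the median of the members was 0.01. In no member were the FPKM values of all *Ptpn6*+/mev mice on one side of all wild-type values, which was the case for 20.4% of tested genes. On log2 CPM, the counts scaled to library size, *Acot11* was the 1 member whose groups did not overlap, against 19.4% of tested genes.

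*Acot12*, a cytosolic enzyme that hydrolyzes acetyl-CoA, had the most negative log2 fold change. In *Ptpn6*+/mev mice 1 to 3 the FPKM read 32.0, 21.4 and 26.4, and in wild-type mice 1 to 3 it read 35.2, 57.4 and 29.6. Wild-type replicate 2 was far above the rest, and *Ptpn6*+/mev replicate 1 was above wild-type replicate 3. The means were 26.6 ± 5.33 (SD, n = 3) and 40.7 ± 14.7 (SD, n = 3). The log2 fold change was -0.70 (95% interval -1.33 to -0.07), with an adjusted p of 0.347 from edgeR's quasi-likelihood test. Without wild-type replicate 2 it was -0.33.

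*Acot11*, also called Them1, is a long-chain thioesterase known for holding back fatty acid oxidation in brown fat. The FPKM was low in the mutants, at 3.61, 3.81 and 4.24, and reached 6.30, 5.85 and 4.22 in wild-type mice 1 to 3. The highest *Ptpn6*+/mev value and the lowest wild-type value were almost equal, and wild-type replicates 1 and 2 were above all others. The log2 fold change was -0.54 (95% interval -0.89 to -0.18), with an adjusted p of 0.21 from edgeR's quasi-likelihood test, the lowest among the members. It lay between -0.68 and -0.42 with any 1 library left out. *Fam151a*, which overlaps it on the other strand, had a log2 fold change of 0.02 (standard error 0.34).

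The proximal tubule markers were also lower in the mutants, with a summed FPKM of 669, 826 and 696 in mutants 1 to 3, against 1122, 940 and 993 in wild-type mice 1 to 3. The marker sum was the lowest of its group in mutant 1 and wild-type mouse 2, where *Acot12* was the highest of its group. In FPKM *Acot11* was lowest in mutant 1 and highest in wild-type mouse 1, where the sum was lowest and highest in turn. The other mice of each group stood in a different order for *Acot11* and for the sum. Of the 12 markers 10 had a negative log2 fold change, against 50.5% of all tested genes, and 7 were lower at an unadjusted p under 0.05, against 6.71%. Of them 1, *Slc22a8*, passed an FDR of 0.05 in edgeR's quasi-likelihood test, which called 0.138% of all tested genes. Without wild-type replicate 2 it called 6 of the markers and 1.8% of all genes, and without wild-type replicate 3 it called 2 of them and 0.508% of all genes. The part of this difference in the values of *Acot11* and *Acot12* was not tested. In whole kidneys, fewer cells of a type and less RNA per cell cannot be told apart. Markers of fat, where *Acot11* is best known, had a summed FPKM of 17.9, 1.74 and 0.74 in mutants 1 to 3, and of 10.7 to 19.2 in wild-type mice. Mutants 2 and 3 were thus below every wild-type mouse and mutant 1 was not. The 3 tested fat markers had negative log2 fold changes with a median of -1.40. The median was -1.65 without wild-type replicate 2 and -0.86 without wild-type replicate 3. With all libraries none of the 3 had an unadjusted p under 0.05 in edgeR's quasi-likelihood test. Their part in the values of *Acot11* was not tested.

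**Figure D2:**
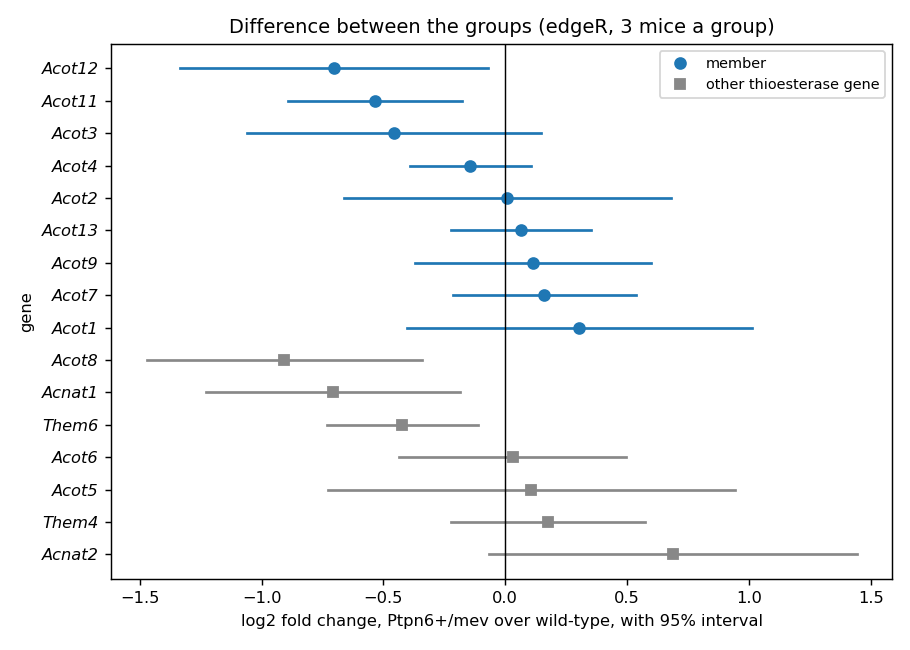
Log2 fold change of *Ptpn6*+/mev over wild-type mice (horizontal axis) with its 95% interval from edgeR, for the 9 members (circles) and for 7 further thioesterase-related genes (squares). Among the members, the intervals of *Acot12* and *Acot11* lie below 0 and the other 7 include 0.

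In the row of type I genes, *Acot1* and *Acot2* varied more within the groups than between them. *Acot1*, the cytosolic long-chain enzyme, was at an FPKM of 102, 43.2 and 69.2 in mutants 1 to 3, against 41.0, 69.2 and 46.6 in wild-type mice 1 to 3. Its coefficient of variation was 41.3% in the first group and 28.6% in the second, the highest among the members in the *Ptpn6*+/mev group. *Acot2*, the mitochondrial copy, was at 39.5, 18.5 and 29.1 in mutants 1 to 3, against 20.5, 34.6 and 26.8 in wild-type mice 1 to 3. The same mice were high and low for both genes: replicate 1 was the highest and replicate 2 the lowest of the *Ptpn6*+/mev mice, and replicate 2 the highest and replicate 1 the lowest of the wild-type mice.

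The log2 fold change was 0.30 for *Acot1* (95% interval -0.40 to 1.01, adjusted p = 0.764) and 0.01 for *Acot2* (95% interval -0.66 to 0.68, adjusted p = 0.995), both from edgeR's quasi-likelihood test. Without *Ptpn6*+/mev replicate 1, that of *Acot1* was 0.01, and without wild-type replicate 2 it was 0.60.

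The FPKM of *Acot1* divided by that of *Acot2*, a ratio examined after the values were seen, came to 2.59, 2.34 and 2.38 in mutants 1 to 3, and to 2.00, 2.00 and 1.74 in wild-type mice 1 to 3. The groups did not overlap, and the same ratio of counts was 2.30 to 2.35 against 1.80 to 1.98. Of the 36 ratios between any 2 members, 8, or 22.2%, were apart between the groups in FPKM, so a ratio of this kind was not particular to *Acot1* and *Acot2*. Both genes had fractional counts and share the long stretch shown above, and the part of shared reads in this ratio was not tested.

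*Acot3* and *Acot4* code for peroxisomal enzymes, the first acting on long acyl chains and the second mainly on succinyl-CoA. The FPKM of *Acot3* stood at 3.87, 3.86 and 2.89 in mutants 1 to 3, and at 4.34, 5.56 and 3.49 in wild-type mice 1 to 3. Of the wild-type mice, only replicate 3 lay within the range of the other group. Its log2 fold change was -0.46 (95% interval -1.06 to 0.14), with an adjusted p of 0.551 from edgeR's quasi-likelihood test, and -0.17 without wild-type replicate 2. *Acot4* stood at 11.5, 7.63 and 7.56 in mutants 1 to 3, and at 10.5, 7.87 and 11.1 in wild-type mice 1 to 3, and the groups covered nearly the same range. The log2 fold change of *Acot4*, fitted on counts, was -0.14 (95% interval -0.39 to 0.11), and it lay between -0.20 and -0.08 with 1 library left out, nearest to 0 without wild-type replicate 2 or *Ptpn6*+/mev replicate 2. For this gene FPKM and counts did not keep step, as 1 FPKM stood for 39.97 to 65.4 counts in different libraries.

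The remaining type II genes differed little between the groups. *Acot13*, also called Them2, an enzyme tied to mitochondria, is found on chromosome 13 (24817948 to 24831540). Mutants 1 to 3 had an FPKM of 123, 111 and 98.3, and wild-type mice 1 to 3 one of 113, 99.0 and 90.8. The groups lay over each other, and its interval around 0.06 reached from -0.22 to 0.35 on the log2 scale, so a 2-fold difference lay outside it. *Acot7*, on chromosome 4 from 152178134 to 152271855, was at an FPKM of 31.8, 32.95 and 28.9 in mutants 1 to 3. The wild-type values were 27.2, 19.6 and 33.4, where replicate 2 was the lowest of all mice. *Acot9*, a mitochondrial enzyme on the X chromosome, was at an FPKM of 45.2, 36.7 and 38.4 in mutants 1 to 3. The wild-type values were 27.95, 46.2 and 31.0, and here replicate 2 was the highest of all mice. The log2 fold changes were 0.16 for *Acot7* (95% interval -0.21 to 0.53) and 0.11 for *Acot9* (95% interval -0.37 to 0.60). Without wild-type replicate 2 they were 0.0010 and 0.40, and that of *Acot7* was 0.33 without wild-type replicate 3. The 95% intervals of 6 of the 9 members lay within a 2-fold change either way, and those of *Acot1*, *Acot3* and *Acot12* did not.

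**Figure D3:**
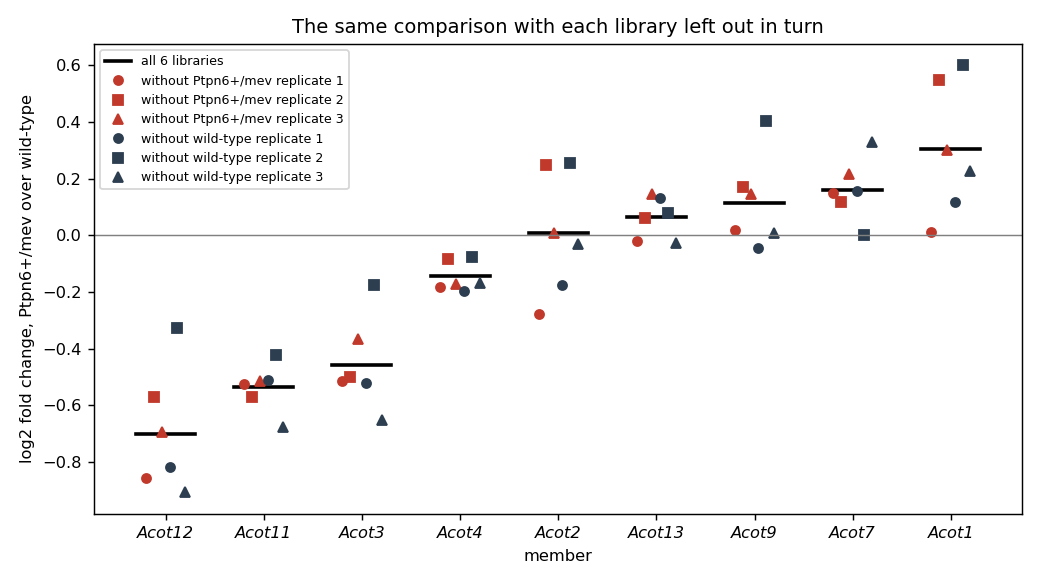
Log2 fold change of each member (vertical axis) with all 6 libraries (black line) and with each library left out in turn (symbols, red for *Ptpn6*+/mev and dark blue for wild-type). *Acot11* keeps to between -0.68 and -0.42, while *Acot2* runs from -0.28 to 0.26, across 0.

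The make-up of the family is given by each member's share of the summed FPKM of all 9, which was 279 to 393 in *Ptpn6*+/mev and 277 to 345 in wild-type mice. *Acot13* made up 34.4% ± 4.6 (SD, n = 3) of it in the mutants, against 33.7% ± 5.5 (SD, n = 3) for wild-type mice. *Acot1* made up 15.5% to 26.0% in the first group and 14.3% to 20.0% in the second. *Acot12* made up 7.66% to 8.65% in *Ptpn6*+/mev mice and 10.7% to 16.6% in wild-type mice, without overlap. The share of *Acot11* was also lower in every *Ptpn6*+/mev mouse, and no member's share was higher in all of them. In FPKM rather than shares, the groups did not overlap for 20.4% of tested genes, and 6.38% were lower in every *Ptpn6*+/mev mouse. A share falls when other members rise, and the share of *Acot12* was apart between groups while its FPKM was not.

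**Figure D4:**
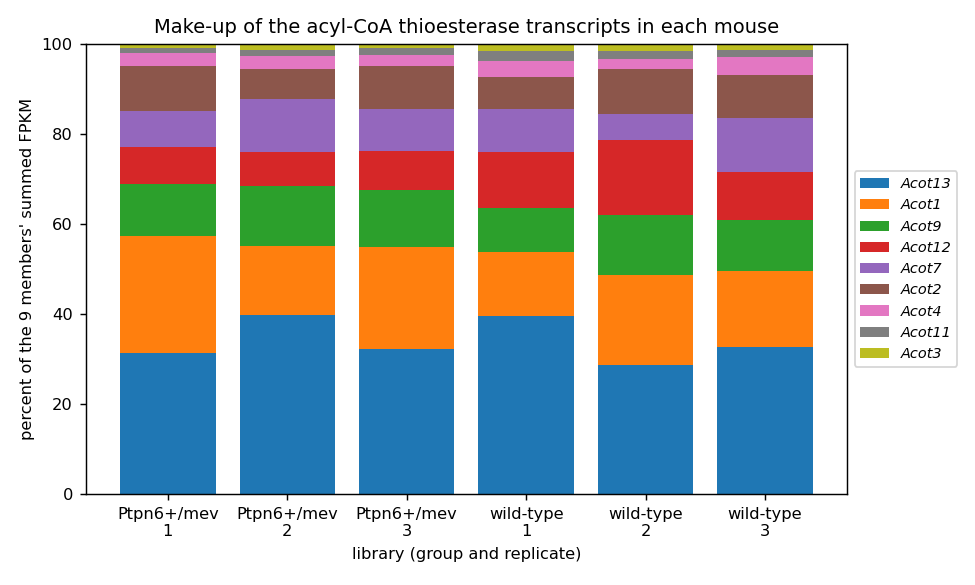
Percent of the 9 members' summed FPKM that each gene takes (vertical axis, stacked from 0 to 100) in each of the 6 libraries. The share of *Acot12* is 7.66% to 8.65% in the 3 *Ptpn6*+/mev libraries and 10.7% to 16.6% in the 3 wild-type libraries.

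Other genes with thioesterase or related acyltransferase activity were listed by name, 10 in all, and 7 of them passed the filter. None was called at an FDR of 0.05 by edgeR's quasi-likelihood test, and 3 had an unadjusted p under 0.05, all lower in *Ptpn6*+/mev mice, as were 6.71% of all tested genes. The first, *Acot8*, codes for the peroxisomal enzyme of broad chain length. It was measured at an FPKM of 16.4, 20.4 and 16.7 in mutants 1 to 3, against 30.6, 41.9 and 22.6 in wild-type mice 1 to 3. Every *Ptpn6*+/mev mouse was below every wild-type mouse, as for 6.38% of tested genes. The log2 fold change was -0.91 (95% interval -1.47 to -0.34), with an adjusted p of 0.188 from edgeR's quasi-likelihood test. DESeq2 gave an adjusted p of 0.0219 and edgeR's exact test one of 0.0247, and it lay between 0.0703 and 0.563 in the quasi-likelihood test with 1 library left out. *Acot8* had fractional counts and shares 12.3% of its exon bases with *Snx21* on the opposite strand, whose log2 fold change was 0.19 (standard error 0.15).

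The other 2 were *Them6*, with a log2 fold change of -0.42 (adjusted p = 0.25), and *Acnat1*, with -0.71 (adjusted p = 0.252), both from edgeR's quasi-likelihood test. *Acnat1* and *Acnat2* belong to the family of *Baat*, the enzyme that joins bile acids to amino acids, and their coding sequences were 95.2% identical, so their counts are uncertain. *Acnat2* reached an FPKM of 201, 69.6 and 132 in mutants 1 to 3, against 71.9, 91.8 and 83.8 in wild-type mice 1 to 3. As for *Acot1*, *Ptpn6*+/mev replicate 1 was the highest and replicate 2 the lowest in its group. *Acot5*, *Acot6* and *Them4* had log2 fold changes of 0.11, 0.03 and 0.18. *Baat* and *Them5* were below the filter, with at most 15 counts and 1 count in a library. *Acot10*, whose coding sequence is 97.2% identical to that of *Acot9*, had no count in any library.

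The members were set beside other genes that make, carry or use acyl-CoA. No gene of these lists was called by edgeR's quasi-likelihood test with all libraries. Together with the other thioesterases and the PPAR genes described later they hold 95 tested genes. Of these DESeq2 called 16 and edgeR's exact test 18, against 2.97% and 2.99% of all genes they tested. Neither called a member. In acyl-CoA formation, 15 of 18 tested genes had a negative log2 fold change, against 50.5% of all tested genes. The median of this list was -0.27. *Acsm2*, *Slc27a2* and *Acss1*, the most abundant genes of this list, had values of 0.08, -0.40 and -0.02. Of 16 tested genes of CoA synthesis and breakdown 14 were negative, with a median of -0.31. *Coasy*, the last enzyme of CoA synthesis, had a log2 fold change of -0.21, *Nudt19*, which splits CoA in peroxisomes, -0.53, and *Vnn1*, the pantetheinase, -1.58. In the carnitine shuttle, which carries acyl chains into mitochondria, 7 of 9 were negative and the median was -0.32, with 0.01 for *Cpt1a*, -0.49 for *Cpt2* and -0.33 for *Slc25a20*.

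Among these 5 lists peroxisomal β-oxidation had the lowest median, -0.56. Of its 17 tested genes 16 were negative, against 50.5% of all tested genes. Of the 16 negative genes, 12 had an unadjusted p under 0.05 in edgeR's quasi-likelihood test, against 6.71% of all tested genes in that direction. So did 10 genes of mitochondrial β-oxidation, 6 of CoA synthesis and breakdown, and 3 each of acyl-CoA formation and the carnitine shuttle. Among the most abundant genes of the peroxisomal list, *Ech1* and *Acaa1b* had log2 fold changes of -0.70 and -1.67. In mitochondrial β-oxidation all 18 tested genes were negative, with a median of -0.35, and *Etfb*, *Acadvl* and *Acadl* had values of -0.37, -0.48 and -0.26. The median over all tested genes was 0.00. The members, at a median of 0.01, thus lay near all tested genes, and the lists of β-oxidation below them, but the difference between lists was not tested. The proximal tubule markers had a median of -0.45, and of -0.57 without wild-type replicate 2. Their part in the values of the lists of acyl-CoA metabolism was not tested. The summed FPKM of each of these 5 lists was highest in wild-type replicate 2, where the peroxisomal list summed to an FPKM of 3182, against 1764 in the lowest wild-type mouse and 1499 to 1595 in *Ptpn6*+/mev mice. Without that mouse the medians were -0.08 for acyl-CoA formation, -0.19 for CoA synthesis and breakdown, -0.14 for the carnitine shuttle, -0.25 for mitochondrial and -0.45 for peroxisomal β-oxidation, and 0.0010 for the members.

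**Figure D5:**
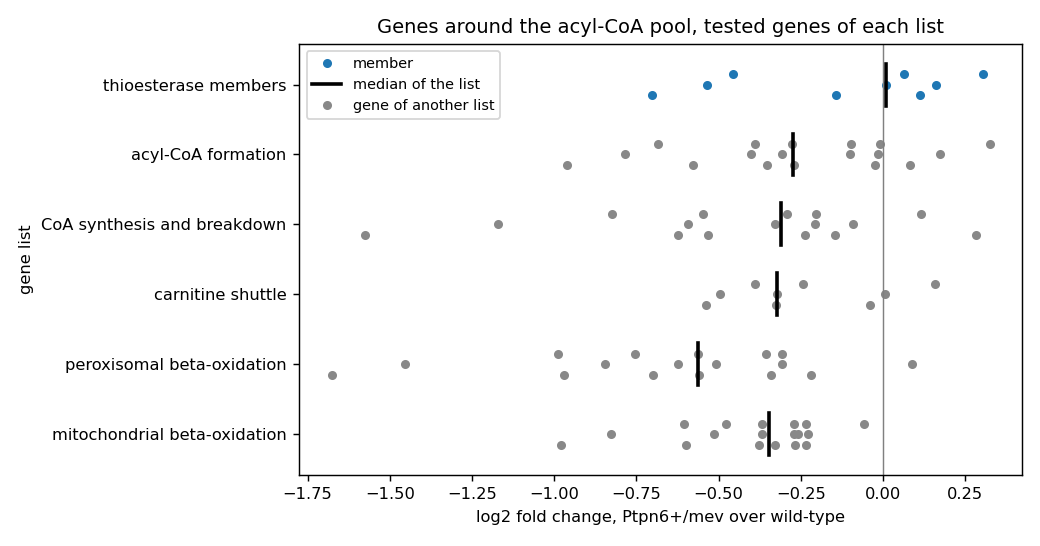
Log2 fold change of *Ptpn6*+/mev over wild-type mice (horizontal axis) for each tested gene of the members (top row, blue) and of 5 lists of acyl-CoA metabolism (grey), with a black line at each median. The members lie on both sides of 0 with a median of 0.01, and the peroxisomal list has a median of -0.56.

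*Ppara*, the gene for PPARα, was at an FPKM of 15.7, 12.3 and 16.1 in mutants 1 to 3, against 22.2, 28.9 and 21.8 in wild-type mice 1 to 3. All mutants were below all wild-type mice, as for 6.38% of tested genes. The log2 fold change of *Ppara*, -0.81, had an adjusted p of 0.104 in edgeR's quasi-likelihood test, and between 0.0403, without wild-type replicate 2, and 0.417 with 1 library left out. It passed an FDR of 0.05 with DESeq2, at an adjusted p of 0.0019, and with edgeR's exact test, at 0.0015. Among 10 tested genes of PPAR receptors and partners, 8 were negative, against 50.5% of all tested genes, and the median of the 10 was -0.18. The most abundant of these 10, *Hnf4a*, *Ncor1* and *Nr1h3*, had log2 fold changes of -0.36, -0.02 and -0.22. The type I members, for which PPARα targets are best known, ran from -0.46 for *Acot3* to 0.30 for *Acot1*.

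*Acot1* and *Acot2* varied together between mice, and the reason was not tested. The 250 bases before their start sites are shown, with those before the start of *Acot12*, the member with the most negative log2 fold change. They are RefSeq sequences of GRCm38.p6, for *Acot1* chr12:84009252-84009501, for *Acot2* chr12:83987611-83987860 and for *Acot12* chr13:91741271-91741520, all on the plus strand, and capitals mark matches to AGGTCA on either strand.
Acot1: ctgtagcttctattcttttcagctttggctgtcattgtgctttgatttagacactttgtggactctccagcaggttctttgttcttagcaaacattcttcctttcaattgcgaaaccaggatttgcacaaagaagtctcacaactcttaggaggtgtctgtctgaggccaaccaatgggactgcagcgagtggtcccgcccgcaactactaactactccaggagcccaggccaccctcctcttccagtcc
Acot2: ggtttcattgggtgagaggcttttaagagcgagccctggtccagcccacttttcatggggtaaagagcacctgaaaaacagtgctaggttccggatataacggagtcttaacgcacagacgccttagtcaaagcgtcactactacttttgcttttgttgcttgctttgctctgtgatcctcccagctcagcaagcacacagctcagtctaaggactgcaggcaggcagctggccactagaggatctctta
Acot12: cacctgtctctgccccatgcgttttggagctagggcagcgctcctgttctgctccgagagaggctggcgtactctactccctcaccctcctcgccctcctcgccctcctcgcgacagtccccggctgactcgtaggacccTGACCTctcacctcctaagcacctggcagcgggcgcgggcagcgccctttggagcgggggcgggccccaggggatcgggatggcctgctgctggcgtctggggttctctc

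PPARα binds with its partner RXR to a repeat of AGGTCA with a single base between the copies. The exact repeat, AGGTCA followed by any 1 base and AGGTCA again, searched on both strands of the 300-base windows around start sites, was in 0.0396% of 32851 windows and in none of the members. One copy of AGGTCA, which the repeat contains, was in 16.3% of all windows and in those of 3 of the 8 members that have one, *Acot3*, *Acot4* and *Acot12*. These are matches of letters in short windows and say nothing of binding.

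For each member, the 2 genes outside the family whose log2 CPM followed it most closely over the 6 libraries were found. They were *4930563D23Rik* and *Adam10* for *Acot1*, with Pearson's r of 0.997 and 0.995, and *Garem1* and *Hnrnpa3* for *Acot2*, with 0.997 and 0.995. For *Acot12* they were *Chrnb2* and *Acadl*, an acyl-CoA dehydrogenase of mitochondria, with 0.995 and 0.993. For *Acot11* they were *Cox6b2* and the carboxylesterase *Ces1d*, with 0.998 and 0.995. The others were *Dnajc3* and *Clcn3* for *Acot3*, *Rnf166* and *Mertk* for *Acot4*, *Pkdcc* and *Pepd* for *Acot7*, *Slc16a5* and *Tbc1d8b* for *Acot9*, and *Rab33b* and *Fancf* for *Acot13*. These values describe 6 libraries in 2 groups, searched over 13036 genes, and are given without a test.

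Markers of other cells were compared in the same way, and none of those tested passed an FDR of 0.05 in edgeR's quasi-likelihood test apart from *Slc22a8*, named above. Tubular injury genes had a median log2 fold change of 0.16, with 5 of 11 higher at an unadjusted p under 0.05, as were 5.53% of all tested genes, and 1 lower, and macrophage genes one of 0.15. The medians were 0.20 for endothelial, -0.10 for fibroblast, 0.19 for podocyte, 0.15 for neutrophil and -0.19 for distal nephron genes. Genes best known from liver had a median of -0.78, with 3 of 5 lower at an unadjusted p under 0.05, as were 6.71% of all tested genes. Without wild-type replicate 2 the medians were -0.19 for endothelial, -0.11 for macrophage, -0.12 for neutrophil and 0.21 for distal nephron genes, all of the opposite sign. Those of fibroblast, podocyte, injury and liver genes were then -0.57, 0.03, 0.34 and -0.41, and that of fibroblast genes was 0.22 without wild-type replicate 3. Without wild-type replicate 2, 2 injury genes, 2 fibroblast genes and 1 liver gene passed an FDR of 0.05 in the same test, as did 1.8% of all tested genes. The summed FPKM of endothelial markers was 131 to 133 in *Ptpn6*+/mev mice and 55.7 to 142 in wild-type mice, and that of fibroblast markers 148 to 233 and 52.6 to 254. Wild-type replicate 2 was the lowest mouse for both, and it was the highest for *Acot3*, *Acot9* and *Acot12*, as for 17.3% of tested genes. *Ptpn6*+/mev replicate 1 was the highest for *Acot1*, *Acot2*, *Acot4* and *Acot13*, as for 20.0% of tested genes. The part of this in the members' values was not tested.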

How the data were processed

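Kidney mRNA of 6 mice was sequenced in 1 library each. The authors aligned read pairs to GRCm38.p5 with TopHat, evaluated FPKM with Cufflinks, and deposited estimated counts and FPKM values per gene; the submitters' processing notes also list Bowtie2 and RSEM, and the tool behind the counts is not given in the sources used here. The deposited expected counts were rounded to whole numbers, since 1744 genes had fractions. Groups and replicate numbers came from sample titles, and columns named HE and WT were matched to them by group and number. Differences were tested with edgeR 4.0.16 (TMM, filterByExpr, quasi-likelihood test) in R 4.3.3, with intervals from its standard error and Benjamini-Hochberg adjustment over all tested genes. The test was tried on simulated data, and the outcome is not reported here. Alternatives used DESeq2 1.42.0, limma 3.58.1 on log2 FPKM, edgeR's exact test, other scalings and filters, a replicate block and each library left out. Alignments used Biopython 1.88. The members, lists and tests were chosen with earlier results of these data known. Named genes were the members, the listed thioesterases, *Ptpn6*, *Ppara*, genes at an FDR under 0.05 and the 3 most abundant of each list of acyl-CoA metabolism or PPAR partners, and the 2 genes most like each member; marker lists are given as summaries, and the genes that overlap members or *Acot8* were added after the overlaps were seen. One gene that this rule names is not reported here. Protein sequences were not analysed here.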

Additional observations from a re-analysis of the deposited data

How the results depend on the processing

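None of the 9 members was called at an FDR of 0.05 in any of the 15 alternatives, the smallest adjusted p being 0.0884, for *Acot11* without wild-type replicate 3. The median log2 fold change of the members lay between -0.18, without *Ptpn6*+/mev replicate 1, and 0.06, without *Ptpn6*+/mev replicate 2. The sign of *Acot2* turned with the replicate block, at -0.010. With each library left out in turn *Acot2* ranged from -0.28 to 0.26, *Acot13* from -0.028 to 0.14 and *Acot9* from -0.045 to 0.40. *Acot2* turned negative without *Ptpn6*+/mev replicate 1 and without wild-type replicate 1 or 3, *Acot13* without *Ptpn6*+/mev replicate 1 or wild-type replicate 3, and *Acot9* without wild-type replicate 1. All 95 tested genes of the related lists were uncalled by the quasi-likelihood test with all libraries. DESeq2 called 16 of them, edgeR's exact test 18 and the fit without a filter 1, against 2.97%, 2.99% and 0.315% of all genes tested. With 1 library left out the number ranged from 0 to 11, with 11 without wild-type replicate 2, where 1.8% of all genes were called, and 5 without wild-type replicate 3, where 0.508% were; the cause was not tested. Deviations from the group means correlated at -0.14, -0.18 and -0.13 for same-numbered mice, and at -0.01 to 0.16 for mice of different numbers. With 3 mice a group such deviations offset each other, so these values cannot decide whether replicate numbers pair the mice. Under the replicate block no member was called. Depth limits *Acot3* most, at 66.4 to 132 counts per library.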
